A study of Mus musculus with 32 samples.

Results

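RNA–chromatin contacts of 10 to 100 kb are interactions whose RNA tag and DNA tag lie on the same chromosome, more than 10 kb and at most 100 kb apart. Each of them was split by the strand of the RNA tag. A contact was called downstream when the DNA tag lay further along the direction of transcription than the RNA tag, and upstream when it lay behind it. The rule took 6144307 of the 25231081 interactions of the series (24.4%). Members were found in all 15 libraries, between 8795 and 807946 per library, out of 251802 to 2832717 interactions. No measured direction was used to choose them.

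In RADICL-seq, RNA and the DNA next to it are ligated to a bridging oligonucleotide inside fixed nuclei, and both ends are read as a pair of tags. The libraries came from R08, a male mouse embryonic stem cell (mESC) line, and from Oli-neu, an immortalised mouse oligodendrocyte progenitor (mOPC) line, so each cell type stands for 1 line. mESC 1FA (3 libraries) and mOPC 1FA (3 libraries) were untreated cells fixed with 1% formaldehyde, and mESC 2FA (3 libraries) were untreated cells fixed with 2% formaldehyde. mESC ActD4 (2 libraries) received 5 µg per ml of actinomycin D, a transcription inhibitor, for 4 hours before fixation at 1%. In mESC NPM (2 libraries) and mOPC NPM (2 libraries) the cells were untreated and fixed at 1%, but proteins were digested and crosslinks reversed before RNA was ligated. The study defined the contacts that remain as non-protein mediated (NPM). Replicates were batches of cells of different passage. The libraries of a group share 1 list of significant pairs of a transcript and a 25-kb DNA bin, called on the pooled replicates, so their spread can be smaller than that of libraries called one by one. Pairs under the threshold are not listed, so no limit can be set for a direction listed at 0.

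A transcript that is still being made is held at its gene by RNA polymerase II, and RNA made early in the gene travels with the polymerase towards the 3′ end. The DNA near an RNA tag can therefore lie ahead of the base that encoded the tag. Introns are removed while or soon after they are transcribed, so an intronic tag mostly marks RNA close to its gene, whereas exons are joined in the spliced transcript.

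The contacts that stood furthest from this picture were those of the NPM libraries, in which both tags mostly lay in exons of the same gene. Sequences of the most frequent exon pair of 3 genes are given to show where the tags fell. The genes were chosen after their values were seen. All sequences are RefSeq GRCm38 (mm10), 5′ to 3′ on the strand of the gene, with exon bases in capitals and intron bases in lower case. Tags are windows of 27 bases around the tag position. The files do not give the strand of the DNA tag.
Erc1 DNA tag, chr6:119743303-119743329, minus strand: TGAGAAGAATGACAAAGATAAGAAGAT
Erc1 3′ edge of the exon holding the DNA tag, chr6:119743273-119743302: AGCTGAGTTGGAAAGgtaaggaaggggggc
Erc1 5′ edge of the exon holding the RNA tag, chr6:119722294-119722323: cttttccatcaacagGCAAGTGAAAGACCA
Erc1 RNA tag, chr6:119722259-119722285: AGGTAGCAAATCTGAAACACAAGGAAC
Jarid2 DNA tag, chr13:44731888-44731914, plus strand: CCAAGAGGAATATCATTCAGAAGAAAT
Jarid2 3′ edge of the exon holding the DNA tag, chr13:44731902-44731931: ATTCAGAAGAAATACgtaagtgctcttaac
Jarid2 5′ edge of the exon holding the RNA tag, chr13:44823365-44823394: attctccttccacagGATGACAGCGATGGG
Jarid2 RNA tag, chr13:44823386-44823412: AGCGATGGGATCCCGTGGTCAGAAGAG
Cntn1 DNA tag, chr15:92295037-92295063, plus strand: GATCCCTTGGATGGAGTATGAATTTCG
Cntn1 3′ edge of the exon holding the DNA tag, chr15:92295123-92295152: AAACAGACGGTGCTGgtatgtgcaagaacc
Cntn1 5′ edge of the exon holding the RNA tag, chr15:92305014-92305043: tgaattcccgttcagCCTTTGTCGAGAGAG
Cntn1 RNA tag, chr15:92305063-92305089: TTGGTTACATAGTGGCGTTTAAGCCAT
In each pair the DNA tag lies in the earlier exon and the RNA tag in a later one, so the contact counts as upstream. All 6 tag windows lie wholly in exon sequence. The intron bases begin with gt after each exon of a DNA tag and end with ag before each exon of an RNA tag.

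Contacts of 10 to 100 kb lay mostly downstream of the RNA tag in every group except the NPM groups, where they lay almost wholly upstream. The downstream share was 61.7, 61.7 and 61.4% in the mESC 1FA libraries. The mESC 2FA libraries stood at 61.3, 61.4 and 61.3%, and those of mESC ActD4 at 61.5 and 61.7%. mESC 1FA overlaps with both other mESC groups, whereas the mESC ActD4 libraries lie above those of mESC 2FA. mOPC 1FA gave 65.4, 65.0 and 63.0%, all above every mESC library. mESC NPM gave 3.34 and 3.35%, and mOPC NPM 4.13 and 6.08%. The 4 NPM values do not overlap with those of any other group.

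**Figure D1:**
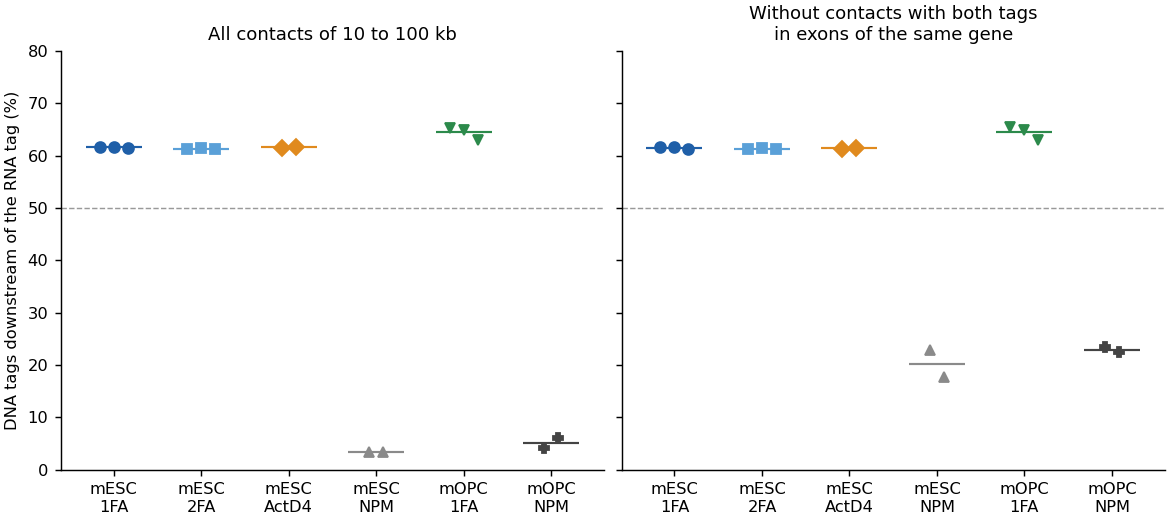
Share of contacts of 10 to 100 kb with the DNA tag downstream of the RNA tag, in percent, by group. Each point is 1 library, the bar is the group mean and the dashed line marks 50%. The left panel holds all contacts and the right panel leaves out contacts with both tags in exons of the same gene. This moves the means of the NPM groups from 3.3 and 5.1% to 20.2 and 22.9%. It leaves the single libraries of the other groups at 61.3 to 65.4%.

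Over the 11 libraries without NPM, the share lay 12.3 percentage points above 50% on average and was above it in 11 of 11 (two-sided exact sign-flip test, p = 0.000977, the smallest it can give). The 4 NPM libraries differed from 50% by -45.8 points (exact p = 0.125, the smallest possible with 4). The planned test over all 15 libraries gave -3.19 points (exact p = 0.643), as the 2 directions offset each other. The NPM libraries were set apart after their direction was seen, so the signs of the 11 and of the 4 were known beforehand. The same choice underlies every test over 11 libraries below. Libraries of a group also share 1 list of pairs, so they are not independent. mOPC 1FA exceeded mESC 1FA by 2.86 percentage points (64.4% ± 1.3, SD, n = 3, against 61.6% ± 0.15, n = 3). The exact permutation test gave p = 0.1, the smallest that 3 libraries against 3 allow. Over both conditions together, mOPC lay 2.308 points above mESC (permutation within condition, exact p = 0.0167, adjusted p = 0.0583 over 7 comparisons). mESC 2FA differed from mESC 1FA by -0.23 points (exact p = 0.2), and mESC ActD4 by 0.003 points (exact p = 1). mESC NPM differed from mESC 1FA by -58.2 points and mOPC NPM from mOPC 1FA by -59.3 points (exact p = 0.1 each, the smallest possible). Permuted within cell type, the NPM difference was -58.8 points (exact p = 0.01, adjusted p = 0.0583, the smallest p possible being 0.01). A difference between the cell types in this value was not detected (interaction -1.1 points, exact p = 0.65).

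The groups also differed in how much of the data lay at this distance. The contacts made up 28.4% ± 0.11 of all interactions in mESC 1FA, 29.5% ± 0.5 in mESC 2FA and 25.3% ± 0.16 in mOPC 1FA (SD, n = 3 each). In mESC ActD4 they made up 35.1% ± 0.39 (n = 2). In mESC NPM and mOPC NPM they made up only 1.76% ± 0.37 and 1.34% ± 0.22 (n = 2 each). Most NPM interactions were closer: of cis interactions beyond 1 kb, 16.8 and 17.3% fell in the range, against 31.7% in mESC 1FA, 45.5% in mESC ActD4 and 30.7% in mOPC 1FA. The difference of mESC ActD4 from mESC 1FA was 6.69 points of all interactions (exact p = 0.1, the smallest possible).

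The downstream excess faded with distance. In mESC 1FA the downstream share fell from 66.6% ± 0.53 at 10 to 20 kb to 54.8% ± 0.19 at 90 to 100 kb, with no distance class out of order. mESC 2FA went from 66.0 to 54.7%, mOPC 1FA from 69.5 to 56.0% and mESC ActD4 from 64.8 to 57.0%. The NPM groups ran the other way, from 2.1 to 9.9% in mESC NPM and from 3.1 to 12.1% in mOPC NPM, on 185 and 473 contacts in the last class. Values on either side of the limits were close. In mESC 1FA the share was 66.7% at 9 to 10 kb and 67.1% at 10 to 11 kb, and 54.8% at 90 to 100 kb and 54.2% at 100 to 110 kb. In mESC NPM it was 1.44 and 1.79% around the lower limit and 9.85 and 11.02% around the upper.

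**Figure D2:**
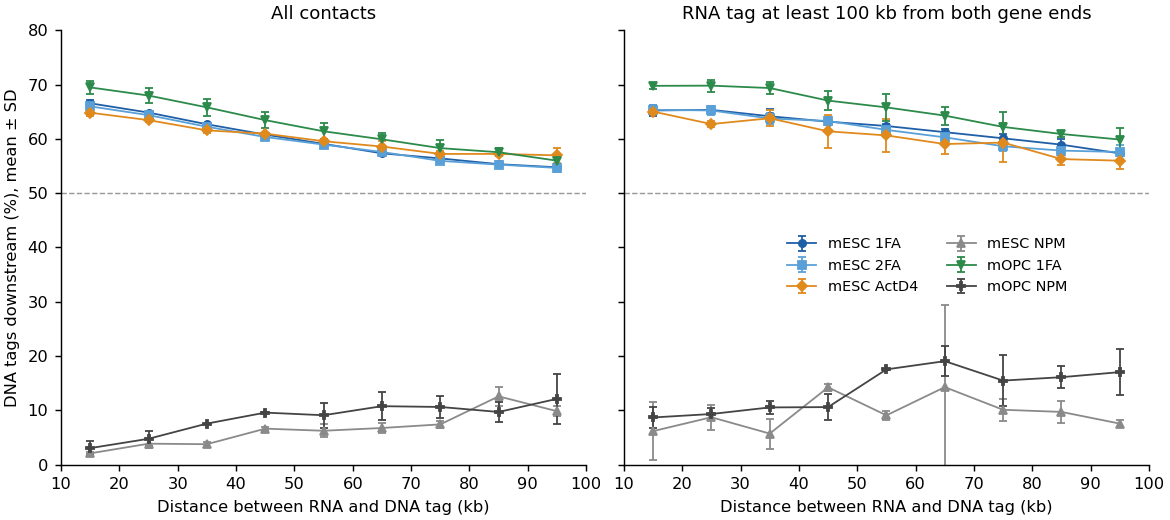
Downstream share in percent (mean ± SD over 2 or 3 libraries) against the distance between the tags in classes of 10 kb, for all contacts (left) and for RNA tags at least 100 kb from both ends of their gene (right). The dashed line marks 50%. The groups without NPM end lower than they start in both panels, for mESC 1FA at 57.3% against 65.2% on the right.

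The excess was not confined to tags near a gene end. For RNA tags at least 100 kb from both ends of their gene, the whole range lies inside the gene on both sides. These tags made 6.64% of the contacts in mESC 1FA and 12.04% in mOPC 1FA. Their downstream share was 62.7% ± 0.32 in mESC 1FA, 62.4% ± 0.43 in mESC 2FA, 61.3% ± 0.48 in mESC ActD4 and 66.5% ± 1.4 in mOPC 1FA. Over the 11 libraries without NPM they lay 13.4 points above 50% (exact p = 0.000977, the smallest possible). With distance their share went from 65.2 to 57.3% in mESC 1FA, from 65.0 to 56.0% in mESC ActD4 and from 69.8 to 59.9% in mOPC 1FA.

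Contacts inside the gene of the RNA tag were more downstream than those that left it. The own gene held 51.5% of contacts in mESC 1FA, 61.3% in mESC ActD4 and 59.9% in mOPC 1FA, but 97.6% in mESC NPM and 96.6% in mOPC NPM. In mESC 1FA 66.4% ± 0.45 of contacts inside the gene and 56.4% ± 0.46 of those outside it lay downstream. For mESC 2FA the pair of values was 65.5 and 56.7%, and for mOPC 1FA 68.1 and 59.0%. It was 68.8 and 50.1% in mESC ActD4, the widest gap among the 4 groups without NPM. The difference was 11.03 points over the 11 libraries and positive in 11 of 11 (exact sign-flip p = 0.000977, the smallest possible). Outside the gene the share still lay 6.05 points above 50% over these libraries (exact p = 0.00195). Over all 15 libraries the difference was 1.38 points (exact p = 0.757), since it was negative in the 4 NPM libraries. Counting each pair of a transcript and a DNA bin once turned it to -5.62 points.

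After actinomycin D the 2 places moved in opposite directions against mESC 1FA. The downstream share differed by 2.39 points inside the gene and by -6.31 points outside it. The groups do not overlap in either (exact p = 0.1 each, the smallest 3 libraries against 2 allow, adjusted p = 0.117). The near-equal totals of 61.6% in both groups thus held different parts. These shares pool the transcripts and pairs that each group's own list holds, on 234809 contacts in mESC ActD4 and 2255656 in mESC 1FA. The part of the lists in the 2 shifts was not tested.

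The position of the RNA tag along the gene showed the same shift. In genes over 100 kb, the gene was cut into 5 equal parts from the 5′ end. The downstream share in mESC 1FA was 66.6% ± 0.27 for RNA tags in part 1, 62.5% ± 0.19 in part 3 and 57.8% ± 1 in part 5. In mOPC 1FA it was 69.8, 64.7 and 61.4%, and in mESC ActD4 68.5, 59.4 and 51.4%. The room inside the gene on each side changes from part to part by geometry, and no test was run. mESC ActD4 held 31.7% of the contacts of these genes in part 1 and 13.02% in part 5, against 25.4 and 16.8% in mESC 1FA. The NPM groups were loaded to the other end, with 27.7% (mESC NPM) and 31.5% (mOPC NPM) in part 5 and 9.98 and 9.07% in part 1.

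DNA tags beyond the ends of the gene favoured the 3′ side close to the gene and lost that preference with distance. At 1 to 5 kb beyond the gene, 68.2% ± 0.64 of the DNA tags in mESC 1FA lay past the 3′ end rather than before the 5′ end, and 65.6% ± 0.63 in mESC ActD4. The share fell to 58.6% at 10 to 25 kb and 48.6% at 50 to 100 kb in mESC 1FA. mOPC 1FA kept 67.7% at 5 to 10 kb and 63.3% at 10 to 25 kb before reaching 49.9% at 50 to 100 kb. mESC ActD4 was at 50.3% by 10 to 25 kb, 45.2% at 25 to 50 kb and 37.6% ± 0.75 at 50 to 100 kb. In each of the 3 classes from 10 kb on, both mESC ActD4 libraries were below all mESC 1FA libraries. These values were not tested.

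**Figure D3:**
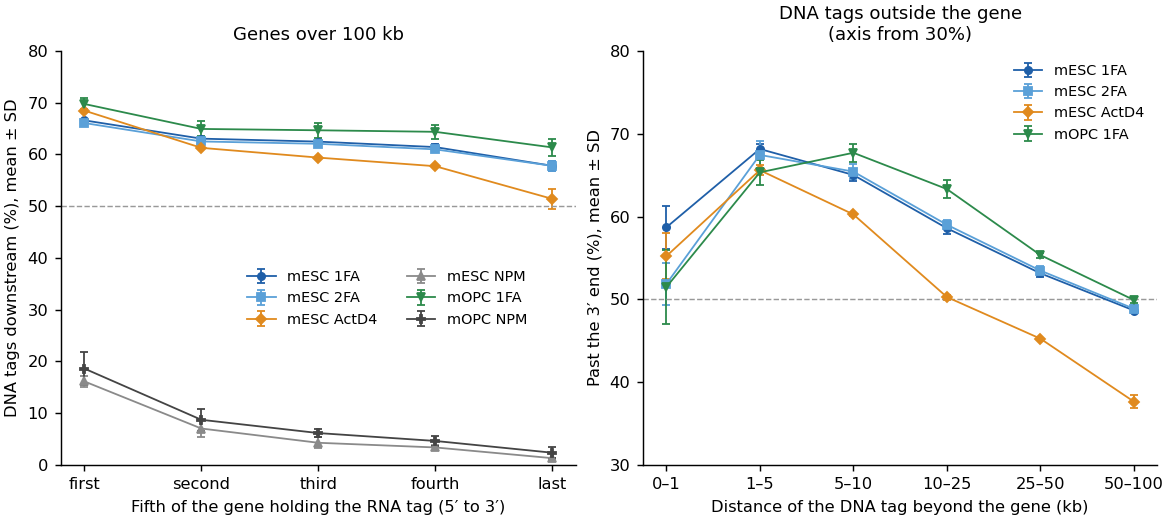
Left, downstream share in percent by which of 5 equal parts of the gene holds the RNA tag, for genes over 100 kb. Right, share of DNA tags past the 3′ end among DNA tags outside the gene, by their distance beyond the gene, with the axis starting at 30% and the NPM groups left out for their few contacts. Points are means over 2 or 3 libraries with SD, and the dashed line marks 50%. The mESC ActD4 line is lowest of the groups without NPM in part 5 of the gene (51.4%) and from 5 kb beyond the gene on.

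Protein-coding transcripts made 95.6 to 99.1% of the contacts in the group means, so the totals follow them. Their downstream share was 61.5% ± 0.15 in mESC 1FA and 64.4% ± 1.3 in mOPC 1FA. Long noncoding RNAs stood at 63.5% ± 0.3 and 63.6% ± 1.1, and made 2.32 and 4.31% of the contacts. Within libraries they lay 1.17 points above coding transcripts over the 11 libraries without NPM (higher in 8 of 11, exact p = 0.0234) and 5.26 points above over the 13 libraries with at least 100 contacts of each class (higher in 10 of 13, exact p = 0.00586, adjusted p = 0.0176 over 6 differences). The second value was raised by the mOPC NPM libraries, at 32.3 and 23.2 points. The 3 libraries below 0 were those of mOPC 1FA, at -1.15, -0.66 and -0.67 points, and the 8 mESC libraries ran from 0.72 to 2.6. The difference between cell types was not tested. RNA tags 100 kb from both gene ends gave -1.85 points over all libraries, and the minus strand alone 5.82 points (exact p = 0.141).
The files' class ncRNA was far more downstream, at 90.7% ± 6.8 in mESC 1FA and 90.9% ± 2.3 in mOPC 1FA, on 1026 and 1620 contacts. Most of these lay on the mitochondrial chromosome, which is short and circular. Its ribosomal RNA genes, mt-Rnr1 and mt-Rnr2, start so near its first base that linear coordinates leave no room for an upstream tag 10 kb away, and all of their contacts counted as downstream. Without the mitochondrial chromosome the class stood at 78.8% ± 2.7 (276 contacts) and 76.2% ± 3.3 (521 contacts). Unannotated NAST transcripts were 79.2% ± 3.3 downstream in mESC 1FA (1014 contacts) and 81.4% ± 2.4 in mESC 2FA (917 contacts).

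RNA tags at the 2 ends of mature transcripts differed most. Intronic RNA tags, 85.0% of contacts in mESC 1FA, were 61.7% ± 0.15 downstream. Tags in 5′ UTRs were 69.9% ± 0.69 downstream and tags in 3′ UTRs 53.3% ± 0.89. Coding sequence stood between, at 62.4% ± 0.16. The order was the same in mOPC 1FA, with 74.7% for 5′ UTR, 65.8% for coding sequence, 64.5% for introns and 57.3% for 3′ UTR. In mESC ActD4 the 5′ UTR stood at 70.5% and the 3′ UTR at 44.0% ± 1.1, below 50% in both libraries. The 3′ UTR was less downstream than introns in 15 of 15 libraries, with a mean difference of -13.6 points (exact sign-flip p = 6.1e-05, the smallest possible, adjusted p = 0.000366). Over the 11 libraries without NPM the differences from introns were -9.77 points for the 3′ UTR, 9.58 for the 5′ UTR, 1.64 for tags labelled exon without a coding or UTR label and 0.91 for coding sequence, each with 1 sign in 11 of 11 (adjusted p = 0.00117). With the NPM libraries the last 3 did not hold, at 3.42 over 14 libraries (exact p = 0.314) and -1.15 and -5.85 over 15 (exact p = 0.474 and 0.125). The sign of the 3′ UTR difference turned for RNA tags at least 100 kb from both gene ends, at 4.24 points (exact p = 0.141). The signs of both UTRs turned with the place of the DNA tag. With DNA tags outside the gene only, the difference from introns was 15.4 points for the 3′ UTR and -6.44 points for the 5′ UTR. The room inside the gene on each side of a UTR tag is set by geometry, as for the parts of the gene above. Region and position in the gene were not told apart by these tests.

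The NPM libraries held a different kind of contact. Both tags lay in annotated exons of the same gene in 86.5 and 82.2% of the contacts of the mESC NPM libraries, and in 84.1 and 74.1% of those of mOPC NPM. In the other groups the means ran from 0.71 to 1.77%. Of these contacts between exons, 0.28% ± 0.04 lay downstream in mESC NPM (15104 contacts) and 0.42% ± 0.11 in mOPC NPM (26365 contacts). In mESC 1FA the same kind of contact was 69.2% ± 1.4 downstream (18289 contacts). Coding sequence held 80.2 and 74.2% of the NPM RNA tags, against 6.37% in mESC 1FA and 3.96% in mOPC 1FA.

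**Figure D4:**
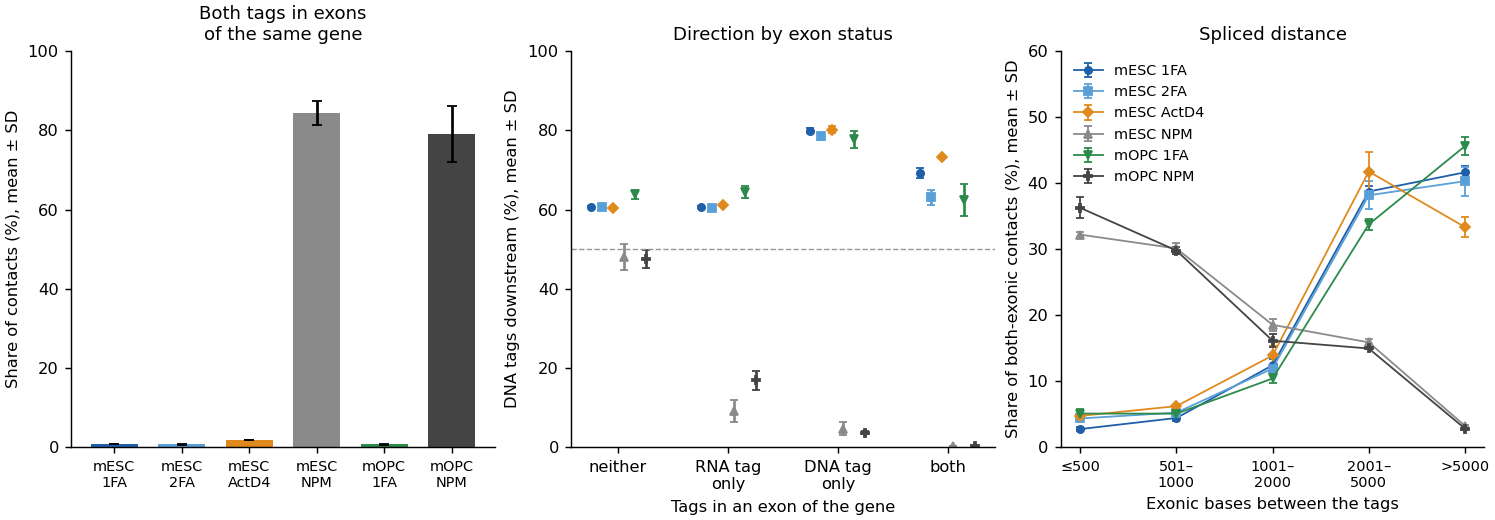
Left, share of contacts with both tags in exons of the same gene, in percent. Centre, downstream share by which tag lies in an exon of the gene. Right, how the contacts between exons divide over the number of exonic bases between the tags. Bars and points are means over 2 or 3 libraries with SD. The NPM groups hold 84.4 and 79.1% of their contacts in the first panel, and their values in the centre panel run from 48.1 and 47.5% (neither tag) to under 1% (both).

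Counted along the exons alone, the NPM tags were close. The median distance between exonic NPM tags was 17.0 kb in the genome of mESC NPM and 18.0 kb in mOPC NPM, but only 734 ± 11 and 664 ± 20 exonic bases (SD over 2 libraries). In mESC 1FA the medians were 21.5 kb and 4302 ± 82 exonic bases (n = 3). At most 500 exonic bases separated the tags in 32.2% of these contacts in mESC NPM and 36.3% in mOPC NPM, against 2.76 to 5.11% in the other groups. The exons that held NPM tags were short, with library medians of 182 to 186 bases for the RNA tag and 199 to 208 for the DNA tag, and 77.7 to 82.7% of the tag pairs lay 1 to 5 exons apart. In the other groups the medians were 402 to 1983 bases for the RNA tag. Both tags in 1 exon made 0 to 0.0963% of these contacts in the NPM libraries and 1.4 to 13.4% in the others.

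The direction in NPM libraries changed with the exon status of the tags. Contacts with 1 tag in an exon were also mostly upstream, with 9.18% ± 2.7 downstream for the RNA tag alone and 4.7% ± 1.6 for the DNA tag alone in mESC NPM. In mESC 1FA the DNA tag alone in an exon gave the highest share of the 4 kinds, 79.9% ± 0.59. With neither tag in an exon the NPM contacts were near evenly divided, at 48.1% ± 3.2 in mESC NPM (905 contacts) and 47.5% ± 2.3 in mOPC NPM (2335 contacts). That is -2.21 points from 50% over the 4 libraries (exact sign-flip p = 0.25). The NPM difference from 1FA, permuted within cell type, was -41.4 points without contacts between exons and -14.5 points with neither tag in an exon (exact p = 0.01 each, the smallest possible). Whether the DNA tags between exons came from genomic DNA or from spliced transcripts was not tested.

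Erc1, which encodes a scaffold protein of the active zone, had the most concentrated DNA tags of the 3 genes. It lies on chromosome 6 from 119570796 to 119848167, minus strand. None of its 46 and 44 contacts in the mESC NPM libraries lay downstream, and 94.4% were between exons. In mESC 1FA 58.8, 67.3 and 58.8% lay downstream. The exon pair printed above took 26 of the 90 NPM contacts, 16 in one library and 10 in the other. In 25 of the 26 the DNA tag lay within 1 base of 1 position, whereas the RNA tags had 21 different positions. A median of 21052.5 genomic bases but 85.5 exonic bases separated them.
Jarid2, a cofactor of Polycomb repressive complex 2 on chromosome 13 (44729474 to 44921643, plus strand), had 3 of 75 contacts downstream in mESC NPM, at 3.12 and 4.65%. Its most frequent exon pair took 19 contacts, with 13 different DNA positions and 5 contacts within 1 base of the most frequent one. The median distance was 91742 genomic bases and 595 exonic bases. Cntn1, a cell adhesion protein of neural cells on chromosome 15 (92051165 to 92341967, plus strand), had 3.37 and 3.39% of its contacts downstream in mOPC NPM, 8 of 237. Its printed exon pair took 27 contacts, with 21 different DNA positions and 5 contacts within 1 base of the most frequent one, at medians of 10082 genomic and 262 exonic bases. In mOPC 1FA the Cntn1 libraries gave 68.9, 67.6 and 65.2%.
Exons were not the rule for every NPM transcript. Lhfpl3, a tetraspan membrane protein and progenitor marker on chromosome 5 (22746059 to 23275597, plus strand), had no contact between exons in mOPC NPM. Of its contacts 43.2 and 47.1% lay downstream there, against 67.8, 67.7 and 63.1% in mOPC 1FA.

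Transcript by transcript, the downstream excess was broad. The log2 ratio of downstream to upstream contacts was tested per transcript with limma, and transcripts were called at a Benjamini-Hochberg adjusted p under 0.05. In mESC 1FA 6243 transcripts were tested, of which 4130 were called downstream (66.2%) and 75 upstream (1.2%). In mESC 2FA the shares of 5853 transcripts were 64.6 and 1.25% (3783 and 73). In mOPC 1FA they were 73.9 and 1.05% of 4771 (3526 and 50). mESC ActD4, with fewer contacts, gave 40.3 and 0.968% of 1653 (666 and 16). In the NPM groups few transcripts reached the minimum mean of 20 contacts. All 15 in mESC NPM were called upstream (100% upstream, 0% downstream). In mOPC NPM 67 of 69 were upstream (97.1%) and 1 downstream (1.45%). Of the 3870 transcripts tested in both mESC 1FA and mOPC 1FA, 2920 were called downstream in mESC and 2876 in mOPC, with 2414 in both. Upstream calls numbered 25 in mESC and 29 in mOPC, with 5 in both. A further 6 were called downstream in mESC and upstream in mOPC. The overlap of the calls was not tested.
Among transcripts with a mean of at least 100 contacts, the downstream share had a median of 61.8% in mESC 1FA (2136 transcripts, 10th to 90th percentile 55.7 to 66.5%) and 64.8% in mOPC 1FA (1392 transcripts, 56.3 to 70.4%). It was above 50% for 97.5 and 98.1% of them.

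The transcripts with most contacts in mESC 1FA were Gm20388, Fgfr2, Msi2, Jarid2, Pvt1, Tead1, Exoc4, Ankrd11, Ntn1 and Rbpms. Their downstream shares ran from 59.0% for Gm20388 to 69.5% for Jarid2. The annotated spans of Gm20388 and Fgfr2, 4435 and 2961 kb, cover other genes, so reads of those genes may be counted with them. Jarid2 had 68.7, 70.2 and 69.7% in the mESC 1FA libraries (log2 ratio 1.19 ± 0.05, SE, limma adjusted p = 3.95e-17). Exoc4, a subunit of the exocyst, had 67.3, 69.9 and 68.9%.
In mOPC 1FA the leading 10 were Pvt1, Sox6, Babam2, 5031425E22Rik, 2610035D17Rik, Anks1b, Agap1, Cntn1, Lhfpl3 and Asap1. Sox6, a transcription factor of the progenitor state, had 74.2, 74.1 and 70.2% downstream, on 6055 contacts (log2 ratio 1.42 ± 0.06, limma adjusted p = 3.16e-24). It lies on chromosome 7 from 115470872 to 116038796, minus strand, and 9.8 and 10.0% of its contacts lay downstream in mOPC NPM. The noncoding 5031425E22Rik lay near 50%, at 51.4, 50.5 and 52.4% (log2 ratio 0.08 ± 0.06, limma adjusted p = 0.2). Its neighbour in the ranking, 2610035D17Rik, had 56.1, 56.7 and 51.5% (adjusted p = 0.000129, and 0.0598 without mOPC 1FA replicate 2).

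**Figure D5:**
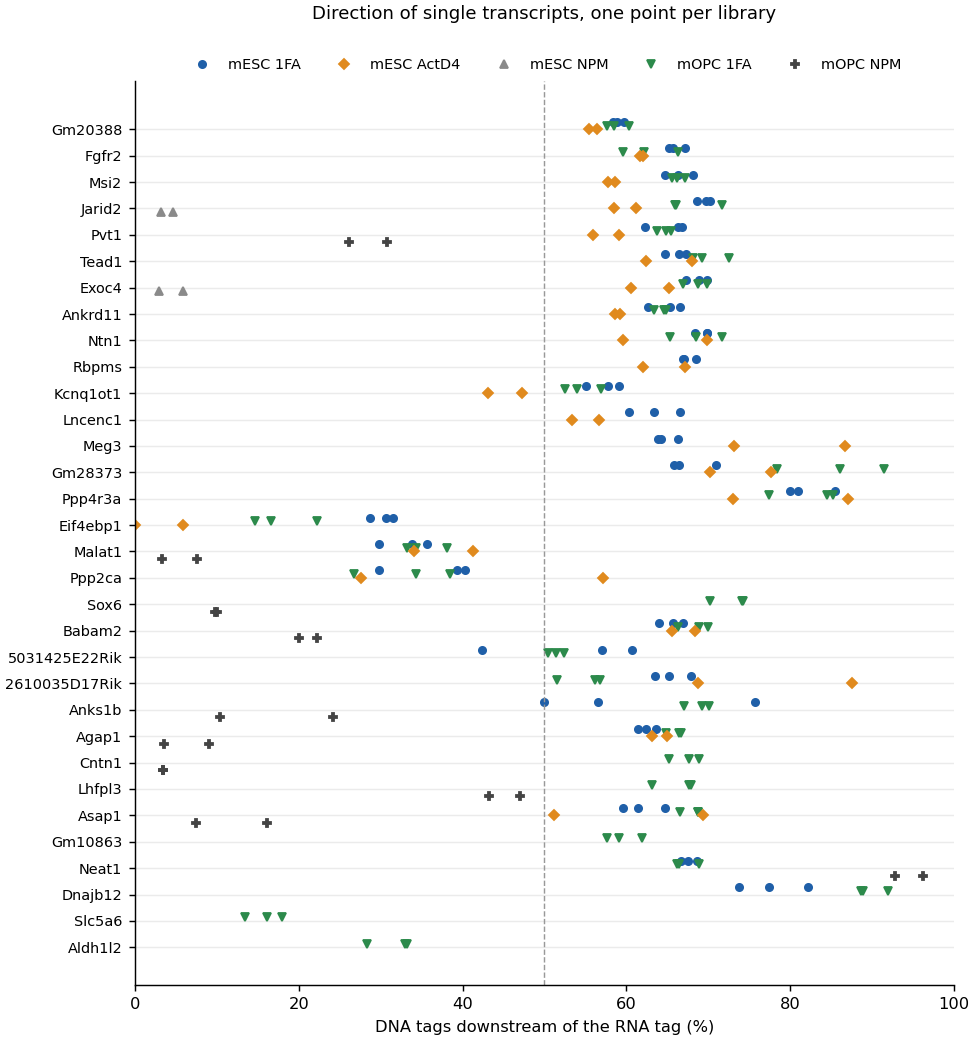
Downstream share in percent of single transcripts, 1 point per library, for the transcripts with most contacts, the most one-sided ones and the leading long noncoding RNAs. Groups with a mean under 20 contacts of a transcript are left out, and the dashed line marks 50%. Malat1 and Neat1 stand apart in mOPC NPM, at 5.4 and 94.4%.

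Among called transcripts with a mean of at least 100 contacts, and apart from the mitochondrial genes, the most downstream was Ppp4r3a in mESC 1FA, with 145 of 179, 141 of 165 and 160 of 200 contacts, and Dnajb12 in mOPC 1FA, with 88.9, 92.0 and 88.6%. Ppp4r3a encodes a regulatory subunit of protein phosphatase 4 and Dnajb12 a co-chaperone of the endoplasmic reticulum. By the same minimum the most upstream were Eif4ebp1, Malat1 and Ppp2ca in mESC 1FA and Slc5a6, Aldh1l2 and Ppp2ca in mOPC 1FA. Eif4ebp1, a repressor of translation initiation (chromosome 8, 27260329 to 27276674, plus strand), had 30.6, 31.5 and 28.7% downstream in mESC 1FA and 14.7, 22.2 and 16.7% in mOPC 1FA. In mESC ActD4 it had 1 downstream contact of 46. Slc5a6, the sodium-dependent multivitamin transporter (chromosome 5, 31036036 to 31048924, minus strand), had 13.4, 17.9 and 16.2% in mOPC 1FA. Ppp2ca, a catalytic subunit of protein phosphatase 2A, lay upstream in both cell types, at 36.5% ± 5.8 and 33.2% ± 5.9. These genes are short, so most of their contacts fall outside the gene. The own gene held 6.06% of the contacts of Eif4ebp1 in mESC 1FA and 2.53% of those of Slc5a6 in mOPC 1FA. The listed bins differed by side as well, with 3 downstream and 5 upstream for Slc5a6, and their part in the share was not tested.

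Malat1 and Neat1, nuclear long noncoding RNAs of speckles and paraspeckles, are neighbours on the minus strand of chromosome 19. On that strand Malat1 (5795690 to 5802672) lies downstream of Neat1 (5824708 to 5845478). Malat1 had 35.7, 29.8 and 33.8% of its contacts downstream in mESC 1FA, and 33.2, 38.1 and 34.3% in mOPC 1FA. Neat1 had 66.7, 67.5 and 68.6% and 66.5, 68.8 and 66.1%. More contacts of each thus lay on the side of the other gene. For Neat1 this is also the common direction. Transcripts with at least 100 contacts had a 10th to 90th percentile of 56.3 to 70.4% in mOPC 1FA, which holds the Neat1 values. In mESC 1FA it was 55.7 to 66.5%, just below them. In mOPC NPM the split was near complete, with 7.56 and 3.33% downstream for Malat1 and 92.7 and 96.2% for Neat1. The DNA tag lay in Neat1 for 89.8% ± 1.3 of the Malat1 contacts there, and in Malat1 for 86.7% ± 2.9 of the Neat1 contacts. In mOPC 1FA these shares were 22.3% ± 2.9 and 9.6% ± 1.8. The fitted differences between mOPC NPM and mOPC 1FA were -3.21 ± 0.39 for Malat1 and 2.94 ± 0.32 for Neat1 (log2, SE). mESC NPM had 3 Malat1 contacts per library and none of Neat1.

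Other long noncoding RNAs differed in direction among themselves. Pvt1, the leading one in both cell types, had 62.3, 66.3 and 66.8% downstream in mESC 1FA and 65.5, 64.8 and 63.7% in mOPC 1FA. Kcnq1ot1, the imprinted transcript that silences its neighbours in cis, stood lower, at 57.3% ± 2.1 and 54.5% ± 2.3. Meg3, a maternally expressed RNA, had 66.2, 63.8 and 64.2% in mESC 1FA. Lncenc1, an RNA of naive stem cells, stood at 63.4% there, Gm28373 at 67.7% and, in mOPC 1FA, Gm10863 at 59.6%. Of the list of 20 cis-acting and imprinted long noncoding RNAs, 13 were tested in mESC 1FA, with 8 called downstream and 1, Malat1, upstream. The median log2 ratio of the tested members was 0.73. In mOPC 1FA 6 were tested, 5 called downstream and 1, Malat1, upstream, with a median of 0.95. Over all transcripts tested, 66.2% were called downstream in mESC 1FA and 73.9% in mOPC 1FA.

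Between mOPC 1FA and mESC 1FA, 303 of 5360 transcripts differed in direction. 257 were further downstream in mOPC (4.79%) and 46 further upstream (0.858%). The median difference over all transcripts tested was 0.17 on the log2 scale. The 2 groups have separate lists of significant pairs, so a bin listed in only 1 group shifts all libraries of that group together. The part of the listed bins in these calls was not tested. Without mESC 1FA replicate 1, 2 or 3, the count was 93, 101 or 56. Without the trend on depth it was 119, and with DNA tags inside the own gene only 42 of 2938. The largest rises among transcripts with at least 100 contacts in both groups were those of Ywhaz, Eif4e2 and Cab39, and the falls described here are those of Gramd1b and Agap3. Ywhaz, a 14-3-3 adaptor protein on chromosome 15 (36770770 to 36796929, minus strand), had 65.1, 58.9 and 44.8% downstream in mESC 1FA and 79.7, 80.8 and 79.4% in mOPC 1FA. The groups do not overlap, as for 1512 of the 5360 transcripts tested (28.2%), and the log2 ratio of Ywhaz rose by 1.62 ± 0.25 (limma adjusted p = 0.003). Gramd1b, a sterol transfer protein on chromosome 9 (40293233 to 40531383, minus strand), went the other way, from 73.6, 66.5 and 66.5% to 54.9, 50.9 and 52.4% (-0.99 ± 0.16, limma adjusted p = 0.0036). Both calls held without each library in turn, but not without the trend on depth (limma adjusted p = 0.0584 and 0.078), and Ywhaz not with DNA tags inside its gene only (0.67, limma adjusted p = 0.663). Eif4e2, a cap-binding protein, stood at 60.2% ± 6.6 and 75.9% ± 6.3, and Cab39, a partner of the kinase LKB1, at 57.7% ± 3.9 and 73.8% ± 2. Agap3 stood at 57.7% ± 7.5 and 42.6% ± 4.1.
The calls of Eif4e2, Cab39 and Agap3 were lost without any 1 of several libraries, while the differences kept their sign. Eif4e2 (1.06 on the log2 scale) lost its call without mESC 1FA replicate 2 or 3 or mOPC 1FA replicate 1 or 2 (0.86 to 1.07, limma adjusted p up to 0.122). Cab39 (1.035) lost it without mESC 1FA replicate 2 or 3 (0.93 and 1.03, adjusted p up to 0.0854). Agap3 (-0.88) lost it in every case except mESC 1FA replicate 2 (-1.01 to -0.7, adjusted p up to 0.173). Only DNA tags inside the own gene gave log2 differences of -0.34 for Eif4e2 and 0.12 for Agap3.

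Few transcripts differed between mESC 2FA and mESC 1FA. DNase I digestion was also longer for the cells fixed at 2%, so fixation and digestion cannot be told apart. Of 6024 tested, 8 were further downstream at 2% (0.133%) and 1 further upstream (0.0166%). The 8 were Mrps25, Psmd3, Pdia3, Slc7a6os, Tdg, Prpf18, Hnrnpa1 and Blcap, and the 1 was Gm22973, all with a mean of 20 to 38 contacts. They were named after their values were seen. Psmd3, a proteasome subunit, went from 69.9 to 98.9% downstream, and Tdg, a DNA glycosylase, from 69.5 to 97.1%. Each group has its own list of pairs, so a bin listed in only 1 group shifts all libraries of that group together. The part of the listed bins in these differences was not tested. Without mESC 1FA replicate 2 or 3 the 9 calls became 4 and 2.

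Between mESC ActD4 and mESC 1FA, 334 of 4553 transcripts were further downstream (7.34%) and 239 further upstream (5.25%), but these counts changed when single libraries were left out. The minimum of 20 contacts was a mean over both groups, and 1653 transcripts reached it in mESC ActD4 alone. Called ones included Cx3cr1, Rpl12 and Rps15a, with means of 8.5, 5 and 5 contacts per mESC ActD4 library. With weights by contacts the 573 calls became 301. Without any 1 of the mESC 1FA libraries limma called no transcript (880 to 939 at an unadjusted p under 0.05), and without mESC ActD4 replicate 1 or 2 the count was 2364 or 2400. The median difference over all transcripts was 0.08 on the log2 scale. The named transcripts are therefore given as values. Jarid2 had 58.5 and 61.2% downstream in mESC ActD4 against 68.7, 70.2 and 69.7% in mESC 1FA (-0.62 ± 0.09 on the log2 scale, limma adjusted p = 0.0138). Without each mESC 1FA library the difference stayed at -0.64 to -0.59 and the adjusted p was 0.134 to 0.149. Ranbp17 had 52.8 and 54.0% against 65.1, 65.2 and 61.9% (-0.64 ± 0.11, limma adjusted p = 0.018). Without each mESC 1FA library its log2 difference was -0.71 to -0.6 and the adjusted p 0.138 to 0.15. Zfp532 stood at 54.9% against 64.7%. Rai1 and Zfp710 were higher, at 70.6% ± 5.5 against 58.7% ± 3.5 and 67.9% ± 1.9 against 60.4% ± 1.2. Of the 5 leading long noncoding RNAs of mESC 1FA, Kcnq1ot1 had 43.1 and 47.2%, below all 3 mESC 1FA values, and Meg3 73.1 and 86.7%, above all 3. Kcnq1ot1 was called and Meg3 was not (limma adjusted p = 0.0347 and 0.0501). Log2 differences of the others were -0.47 for Pvt1, which was called, and -0.51 for Lncenc1 and 0.43 for Gm28373, which were not. Apart from those of Gm28373, all of these groups are separate, as were those of 2343 of the 4553 transcripts tested (51.5%). Here too each group has its own list of pairs, and the part of the listed bins was not tested.
Among 30 pluripotency genes, 16 were tested in this comparison. The 4 called ones, Tbx3, Esrrb, Dnmt3b and Tet1, were all further upstream, and the median difference of the 16 was -0.54. Over all transcripts tested 5.25% were called further upstream, and the median difference was 0.08. Like every call of this comparison, the 4 were lost without any 1 of the mESC 1FA libraries. Esrrb, a nuclear receptor of the pluripotency network, had 49.8 and 57.8% downstream in mESC ActD4 against 63.5, 64.3 and 61.7%. Tet1, a 5-methylcytosine dioxygenase, had 55.3 and 55.5% against 63.2, 63.1 and 66.5%. Over all members, the pluripotency list was 53.1% ± 0.03 downstream in mESC ActD4 (1412 contacts) and 60.7% ± 0.98 in mESC 1FA (13690 contacts). In mESC ActD4 alone, 9 of its genes reached the minimum of contacts. Other lists shifted as well. Median differences were -0.37 for progenitor genes, -0.22 for cis-acting and imprinted long noncoding RNAs and -0.17 for very long genes. For elongation and termination factors, histone genes and ribosomal protein genes they were -0.07, 0.12 and 0.31.

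The NPM groups moved nearly every transcript upstream. Of 1968 transcripts tested between mESC NPM and mESC 1FA, 1892 were further upstream (96.1%) and 1 further downstream (0.0508%). Of 2390 tested in mOPC, 2301 were further upstream (96.3%) and 2 further downstream (0.0837%). Many of these rest on few NPM contacts, with a median of 2.5 and 3.5 per library. Each group has its own list of pairs here as well, and its part was not tested. Of transcripts with at least 20 NPM contacts per library, 15 of 15 in mESC and 68 of 69 in mOPC were further upstream. Megf11, the mESC exception, had 1 NPM contact per library. The mOPC exceptions were Nkain2, with 2 per library, and Neat1. Leaving out contacts between exons left 342 and 766 transcripts to test, of which 227 and 537 were further upstream and 4 and 9 further downstream. The largest fall with at least 100 contacts in both groups was that of Cntn1, by 5.67 ± 0.26 on the log2 scale, followed by Malat1.
Col11a1, a fibrillar collagen, had 0 of 103 and 2 of 56 mOPC NPM contacts downstream, and Syne1, a nuclear envelope protein, 1 of 65 and 1 of 49. Dst, a cytolinker, had 1 of 63 and 0 of 53. In mOPC 1FA these 3 stood at 62.7, 59.1 and 65.3%. The 3 were chosen after their values were seen, as were Megf11 and Nkain2. Pvt1 had 26.1 and 30.8% downstream in mOPC NPM, with 25.9% of its contacts between exons. Auts2, a gene of over 1 Mb, had 5 of 7 and 4 of 7.

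The counts of the gene lists stand beside those of all transcripts tested, of which 66.2% were called downstream and 1.2% upstream in mESC 1FA (median log2 ratio 0.65) and 73.9 and 1.05% in mOPC 1FA (median 0.85). No list was tested against the other transcripts. Of 25 very long genes, 20 were tested in mOPC 1FA and all 20 called downstream, with a median log2 ratio of 1.02 and a pooled share of 67.1% ± 1.6. In mESC 1FA 9 of 11 tested were called downstream and none upstream, with 63.1% ± 0.53. Auts2 was the only one of 13 called between the cell types, at 59.4% ± 2 in mESC 1FA and 65.8% ± 2.6 in mOPC 1FA (0.4 ± 0.11, limma adjusted p = 0.0452). Over all transcripts of that comparison 4.79% were called further downstream. Of 38 oligodendrocyte progenitor genes, 23 were tested in mOPC 1FA, 20 called downstream and 1 upstream, with 66.1% ± 1.7. Of 30 pluripotency genes, 20 were tested in mESC 1FA, 14 called downstream and 1 upstream. For 28 elongation and termination factors the counts in mESC 1FA were 10 downstream and none upstream of 17 tested, and in mOPC 1FA 8 and 1 of 16. For 80 ribosomal protein genes, which are short, they were 15 and 3 of 27 in mESC 1FA, and for 101 histone genes 2 and 0 of 4. Of the 4 ribosomal protein genes with most contacts that the rule names, Rps19 and Rpl26 were called further downstream in mOPC 1FA (limma adjusted p = 0.0291 and 0.00206), on 63 and 34 contacts there, and Rpl12 and Rps15a were not called (log2 differences 0.4 and -0.34, limma adjusted p = 0.597 and 0.583).

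Markers followed the labelled cell types. Pluripotency genes took 6257 to 6505 of every 1000000 interactions in mESC 1FA and 474 to 508 in mOPC 1FA. Progenitor genes took 3241 to 3616 and 31017 to 34260. In mOPC 1FA the neuron list took 1253 to 1475 with 2 of 6 genes listed, the fibroblast list was at 0, and the astrocyte and microglia lists stood at 70.2 to 96.1 and 16.1 to 20.8. In mESC 1FA the astrocyte list took 108 to 161, the neuron list 334 to 390, the microglia list 37.8 to 43.8 and the fibroblast list 1.06 to 3.75. The trophectoderm and primitive endoderm list was uneven there, at 51.0 in replicate 1 and 203 and 211 in the other replicates. It was uneven in mESC 2FA too (27.2, 239 and 207) and stood at 63.5 to 64.5 in mESC ActD4 and 294 to 308 in mESC NPM. The part of these genes in the direction of the others was not tested.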

How the data were processed

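In the deposited files each line gives an RNA–DNA contact, with both tag positions, the transcript, its class and region, and the authors' p-value and adjusted p-value for the pair of transcript and bin. Those p-values were not used. The authors extracted the tags with TagDust2, removed ribosomal RNA and duplicates, aligned both tags separately to mm10 with BWA 0.7.15-r1140, kept unique tags, assigned RNA tags to GENCODE genes by strand and tested each transcript against each DNA bin with a one-sided binomial test, Benjamini-Hochberg adjusted. The submitters' processing notes also name CASAVA 1.8.

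Here lines of 1 interaction were merged, which took the libraries to 251802 to 2832717 interactions. Gene spans and exons came from a later GENCODE release of the same build and matched 98.6% of transcripts and 99.9% of contacts. Groups were compared by exact permutation tests over libraries, and differences within libraries by exact sign-flip tests, all two-sided with Benjamini-Hochberg adjustment. Contacts were counted per transcript from the merged interactions. limma 3.58.1 (R 4.3.3) was fitted to log2((downstream + 0.5) / (upstream + 0.5)) with a trend on depth, for transcripts with a mean of at least 20 contacts per library and at least 1 contact in every library. For such log2 ratios the fitted size of a change is bounded by the 0.5 added. Named transcripts were the 10 with most contacts, the 5 leading long noncoding RNAs and the 3 most one-sided in each direction of both 1FA groups, the 3 largest called rises and falls per comparison with at least 100 contacts and groups that do not overlap, and up to 4 members per gene list. 1 transcript that the rule names is not reported here. Further names are marked where used. The members, the gene lists and the tests were chosen with earlier results of these data known. Alternatives were the merging, weights, strand, distance limits, place of the DNA tag, filters, prior count, trend, replicate block and libraries left out. Leaving out exonic contacts, the mitochondrial chromosome or the NPM libraries was added after seeing the data. Other tools were Python 3.11.15, pandas 2.3.3 and scipy 1.17.1.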

Additional observations from a re-analysis of the deposited data

How the results depend on the processing

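Values are differences in percentage points of the downstream share unless counts are named. mESC ActD4 minus mESC 1FA (0.00321) had no stable sign: -0.0895 with every line counted, -0.118 with transcripts weighted equally, -0.114 on the minus strand, -6.31 outside the own gene, -1.42 for RNA tags 100 kb from gene ends, -0.0729 without chromosome 5, -0.142 without contacts between exons, -0.421 with neither tag exonic, -0.00502 without the mitochondrial chromosome, and -0.101 to 0.107 without single libraries. mESC 2FA minus mESC 1FA (-0.233) was 0.13 with each transcript and bin counted once and 0.272 outside the own gene. Own minus outside gene (1.38) was -5.62 counted once, and 5.82, 11.54 and 11.03 without contacts between exons, with neither tag exonic and without NPM. Exon minus intron (-1.15) was 5.19 with equal weights, 0.816 on the minus strand, -6.04 in and 7.44 outside the own gene, 5.76 far from gene ends, and 3.77, 14.4 and 1.64 under the 3 settings just named. The 5′ UTR minus intron (3.42) was 12.4, 7.6, 17.3, -6.44, 8.42, 8.12 and, without NPM, 9.58 in that order. Coding sequence minus intron (-5.85) was -10.1 in and 1.99 outside the own gene and 0.914 without NPM. The 3′ UTR minus intron (-13.6) was 15.4 outside the own gene and 4.24 far from gene ends. Long noncoding minus coding (5.26) was 5.82 on the minus strand and -1.85 far from gene ends. mOPC minus mESC over both conditions (2.308) was 1.45 in the own gene and 1.24 with neither tag exonic. The difference of all libraries from 50% (-3.19) was 0.115 in the own gene, 1.39 without contacts between exons, 7.83 with neither tag exonic and 12.3 without NPM. The share of all interactions in the range, mOPC minus mESC (-1.78), was -0.238 over cis interactions beyond 1 kb. Counts of called transcripts moved as well. The 303 for mOPC 1FA against mESC 1FA became 479 and 184 with at least 10 and 50 contacts, 119 without trend, 457 with weights, 42 in the own gene and 56 to 301 without single libraries. The 9 for mESC 2FA became 38, 0, 1, 17, 0 and 2 to 13 in that order, where limma's 0 stood beside 185 and 159 at an unadjusted p under 0.05. The 573 for mESC ActD4 became 205 with at least 50 contacts, 301 with weights, 19 in the own gene and 0 to 2400 without single libraries. The 1893 of 1968 for mESC NPM became 1205 with weights and 231 of 342 tested without contacts between exons, and the 2303 of 2390 for mOPC NPM became 1370 of 1425 with at least 50 contacts and 546 of 766 without contacts between exons. Of transcripts with uneven direction, 682 in mESC ActD4 became 356 with at least 50 contacts and 280 without trend, 15 in mESC NPM 100 with at least 10, 3576 in mOPC 1FA 2370 with at least 50, and 68 in mOPC NPM 306 and 11 with at least 10 and 50. In the own gene the log2 differences of Eif4e2 and Agap3 were -0.34 and 0.12. Same-numbered replicates of mESC 1FA, mESC 2FA and mOPC 1FA did not deviate together (correlations -0.03 to 0.04), and the numbers were not taken as pairs. The groups of 2 libraries were not checked. With them as a replicate block the differences were 2.86, -0.233, -0.0823, -58.3 and -60.1 (mOPC, 2FA, ActD4, mESC NPM, mOPC NPM), and the counts 337, 17 and 246 for the first 3. For ActD4 and NPM the block also left out replicate 3 of 1FA, so 2 choices changed at once. Rai1, Zfp710 and Zfp532 lost their call under the block. RNA and DNA tag starts and centres are the same base in the files, so distance between centres gave the same values. The cause of these changes was not tested. The number of contacts in the range, 17908, 33020 and 234809 in mESC NPM, mOPC NPM and mESC ActD4 against 1595772 to 2255656 in the other groups, limits how many transcripts could be tested (15, 69 and 1653 against 4771 to 6243). Over all distances mESC NPM and mOPC NPM held 1043604 and 2463019 interactions, more than the 670583 of mESC ActD4.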
